A study of Homo sapiens with 18 samples.

Results

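The genes described here are 9 members of the interleukin-6 (IL-6) family: the cytokine genes IL6, LIF, IL11 and CLCF1, the receptor genes IL6R, IL6ST, LIFR and OSMR, and the feedback inhibitor gene SOCS3. They were chosen by gene symbol from the 57500 genes of the deposited table, and all 9 had enough reads to be tested. RNA was sequenced from IMR90 cells, an established line of human lung fibroblasts, as 18 libraries, 3 for each of 6 groups. All cells of the series were engineered so that the uncoupler CCCP triggers the removal of their mitochondria. Proliferating cells (Prol) received no irradiation, and irradiated senescent cells (Sen (IR)) received 20 Gy. In Sen (IR) + CCCP, irradiated cells were exposed to CCCP for 48 h and so lost their mitochondria. No group had CCCP without this loss, so exposure to CCCP and loss of mitochondria cannot be told apart. The last 3 groups are depleted cells given sodium acetate at 20 mM from day 3, 10 µg of transfected mitochondrial DNA (mtDNA) on day 10, or both. No group is named as given the transfection reagent alone, so changes with mtDNA cannot be told apart from changes with the reagent. Doses and times are those of the study's methods. The labels number the replicates without saying what separates them, while the paper describes its in vitro work as independent experiments. The p-values measure the spread between these libraries.

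Cytokines of this family signal through receptor complexes that share the chain gp130, the product of IL6ST. IL-6 and IL-11 bind their own receptors (IL-6Rα, encoded by IL6R, and IL-11Rα) before they engage a pair of gp130 chains, whereas LIF uses gp130 together with the LIF receptor. The complex of CLCF1 also includes gp130 and the LIF receptor. Oncostatin M uses gp130 with the product of OSMR. The complexes activate Janus kinases and the transcription factor STAT3, and STAT3 induces SOCS3, which in turn blocks gp130. IL-6 is a long-known secreted factor of senescent fibroblasts, part of the senescence-associated secretory phenotype (SASP).

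The promoters of IL6 and IL11 are shown because these cytokine genes moved in opposite directions after CCCP. Each line holds the 250 bases before the RefSeq start of transcription on GRCh38.p14, 5′ to 3′ on the gene's strand, and motif matches are in capitals. IL6 is on the plus strand at chr7:22726950-22727199, and IL11 is on the minus strand at chr19:55370464-55370713.
IL6: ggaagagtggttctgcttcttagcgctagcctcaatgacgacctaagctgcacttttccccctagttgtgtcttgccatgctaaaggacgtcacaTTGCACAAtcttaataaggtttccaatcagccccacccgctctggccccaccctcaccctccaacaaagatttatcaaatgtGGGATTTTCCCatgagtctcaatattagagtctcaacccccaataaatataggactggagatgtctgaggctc
IL11: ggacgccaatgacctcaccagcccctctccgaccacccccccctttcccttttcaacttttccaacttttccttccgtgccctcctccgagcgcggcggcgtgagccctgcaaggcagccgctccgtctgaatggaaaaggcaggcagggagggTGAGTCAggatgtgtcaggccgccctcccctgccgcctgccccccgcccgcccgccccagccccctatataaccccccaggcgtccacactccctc
The capitals in IL6 mark a match to the C/EBP letters TTGCNNAA, 155 to 148 bases before the start, and a match to the NF-kB letters GGGANNNNCC on each strand, 73 to 63 bases before the start, which overlap. The capitals in IL11 mark a match to the AP-1 letters TGANTCA, 96 to 90 bases before the start. Both strands were searched. Of all 35114 RefSeq promoters of this length, 22.6% held the NF-kB letters, 9.05% those of C/EBP and 6.57% those of AP-1. The STAT letters TTCNNNGAA, found in 6.57% of promoters, were in neither of these windows, and among the members they matched only in LIFR, in 2 of its windows, once in each. Among the other members, single windows of IL6R, IL6ST and OSMR also held the NF-kB letters. Neither window of SOCS3 (chr17:78360926-78361175 and chr17:78359668-78359917) held any of the 7 motifs searched. The gene model used here puts SOCS3 at chr17:78356778-78360077 on the minus strand. Neither window holds the bases just before that start, which were not searched. The table held no entry for LIF or CLCF1.

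Totals on genes ranged from 24624886 to 46224280 counts per library. The fibroblast markers were all detected, with summed levels of 15690 to 17722 TPM (a unit relative to gene length and library size) in Prol, 5491 to 5682 TPM after CCCP and 3773 to 4208 TPM with both treatments, and their part in the results below was not tested. Leukocyte markers summed to between 2.00 and 5.62 TPM, with LYZ and CD3E at 3 counts or fewer in every library. CD68 had 15 to 71 counts and CD14 2 to 27, and both were called higher with acetate. Epithelial markers summed to between 3.75 and 48.4 TPM, highest in Prol, with KRT5 likewise near 0. KRT19 had 726 to 1004 counts in Prol, 212 to 332 in Sen (IR) and 34 to 39 after CCCP, and EPCAM had 9 to 129 over all libraries. Endothelial markers summed to between 0.178 and 2.00 TPM. MKI67, a marker of cycling cells, was 1.95 ± 0.11 lower on the log2 scale in Sen (IR) than in Prol (adjusted p = 3.36e-12). It was 1.00 ± 0.11 higher after CCCP than in Sen (IR) (adjusted p = 9.4e-08). Against depleted cells it changed by -3.23 ± 0.14 with acetate (adjusted p = 1.38e-14), by -2.70 ± 0.13 with both (adjusted p = 1.9e-13) and by -0.22 ± 0.11 with mtDNA, which did not pass the test (adjusted p = 0.182). Its part in the members' changes was not tested. The 13 mtDNA-encoded protein genes held 1.75% to 2.89% of counts in Prol and Sen (IR), and 0.0461% to 0.138% after CCCP except in replicate 2 of the combination, with 0.237%. That library also stood apart for members of the family, and some results that rest on it are given with and without it. In bulk RNA, fewer cells that make a transcript and less of it per cell cannot be told apart.

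Values within a gene are given as CPM, its counts relative to the effective library size set by the trimmed mean of M values (TMM), and a gene is called higher or lower at an adjusted p under 0.05 in edgeR's quasi-likelihood test over 16994 genes. The scale matters for depleted cells. In Sen (IR) + CCCP against Sen (IR), the median log2 fold change of all genes was 0.03 with TMM, 0.29 with library totals and 0.44 with TPM, and the share of called genes that were higher was 52.1%, 70.6% and 78.8%. Changes after CCCP are therefore given relative to the TMM median, and members whose direction turns on another scale are named where they occur.

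The question of the first comparison is what irradiation did to the family. In Sen (IR) against Prol, 5 members were higher (IL6, LIF, CLCF1, IL6R and LIFR) and 2 were lower (IL11 and SOCS3), while 26.7% of all genes tested were higher and 29.9% lower. IL6 and IL6R had the largest log2 changes. The median log2 change was 0.29 over the members and -0.01 over all genes, and 47.1% of all called genes were higher (58.2% with library totals). IL6ST and OSMR did not pass the test, with log2 changes of -0.08 ± 0.04 (SE; adjusted p = 0.102) and -0.11 ± 0.05 (adjusted p = 0.0714). Without Sen (IR) replicate 2, and separately without replicate 2 of the combination, IL6ST and OSMR were also called lower, which made 4 lower members.

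After CCCP the cytokine genes of irradiated cells split. In Sen (IR) + CCCP against Sen (IR), IL6 and LIF fell and IL11 and CLCF1 rose, and SOCS3 rose with the latter pair. In all, 3 members were higher and 5 lower, where 34% of all genes were higher and 31.3% lower. The other lower members were the receptors IL6ST, LIFR and OSMR, whose log2 changes of -0.34, -0.24 and -0.31 turned to 0.09, 0.19 and 0.12 on the TPM scale, and that of LIFR to 0.02 with library totals. IL6, LIF, IL11, CLCF1 and SOCS3 kept their direction and call on all 4 scales. The median log2 change of the members was -0.24.

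**Figure D1:**
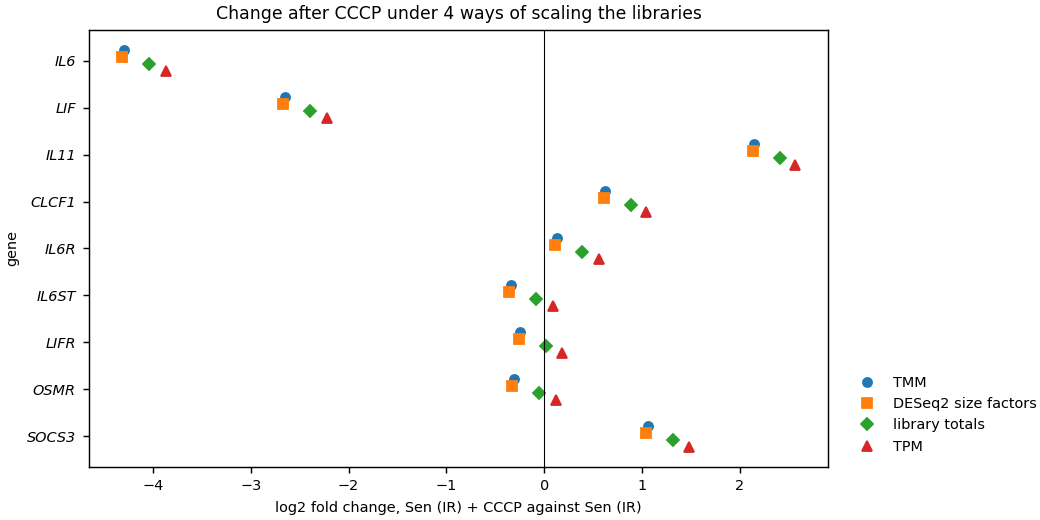
Log2 fold change of each member in Sen (IR) + CCCP against Sen (IR), with 1 symbol for each way of scaling the libraries (TMM, DESeq2 size factors, library totals, TPM). IL6 lies between -4.32 and -3.87 and IL11 between 2.13 and 2.56, whereas IL6ST, LIFR and OSMR cross 0.

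Depleted cells did not have the proliferating pattern. Against Prol, 4 members were higher (IL11, CLCF1, IL6R and SOCS3) and 4 lower (IL6, LIF, IL6ST and OSMR), with 35.1% of all genes higher and 34.1% lower. The falls of IL6ST (-0.43) and OSMR (-0.42) again turned on the TPM scale, to 0.08 and 0.09. LIFR did not pass the test (0.05 ± 0.05, adjusted p = 0.341) and was called higher with TPM (0.56) and with library totals (0.40). The median log2 change was 0.05 over the members and 0.03 over all genes, where the latter was 0.38 with library totals and 0.52 with TPM. Of all called genes 50.8% were higher, or 72.2% and 79.1% on those scales.

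Acetate raised 5 members in depleted cells (IL6, LIF, IL11, IL6ST and OSMR) and lowered 3 (IL6R, LIFR and SOCS3), while 28.8% of all genes were higher and 28.3% lower. CLCF1 did not pass the test (-0.16 ± 0.11, adjusted p = 0.202), though it was called lower on the scales of TPM (-0.26) and of library totals (-0.28). Over the members the median log2 change was 0.34, against 0.01 over all genes, and 50.5% of called genes were higher, or 37.1% with library totals and 39.4% with TPM. This comparison and the next 2 share the 3 libraries of Sen (IR) + CCCP, so their members' values are set side by side and not correlated.

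Transfected mtDNA raised 3 members (IL6, IL11 and OSMR), and 0 were called lower by edgeR, with 10.7% of all genes higher and 7.4% lower. At an unadjusted p under 0.05, 2 members were lower (CLCF1 and LIFR), and DESeq2's Wald test also called 0 lower. On the other side, IL6ST and SOCS3 were also higher at that unadjusted threshold. DESeq2's Wald test called IL6ST higher (0.12, adjusted p = 0.0101). The members had a median log2 change of 0.13 and all genes one of 0.00, and 59.1% of called genes were higher, or 35.7% with library totals and 34.5% with TPM. The rises of IL11 (0.21) and OSMR (0.16) were small, and both were lost on the scales of TPM and of library totals and without CCCP replicate 1. LIFR, not called here at -0.11, was called lower with TPM (-0.18), with library totals (-0.18), with a minimum of 10 counts (-0.13) and in a fit of only these groups (-0.13).

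Acetate and mtDNA together raised 5 members (IL6, LIF, IL11, IL6ST and OSMR) and lowered IL6R, LIFR and SOCS3, with 30.3% of all genes higher and 31.4% lower. CLCF1 did not pass the test (-0.19 ± 0.11, adjusted p = 0.137), and was called lower with TPM (-0.32) and with library totals (-0.37). The members had a median log2 change of 0.50 and all genes one of -0.04, and 49.1% of called genes were higher, or 32.3% with library totals and 36% with TPM.

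**Figure D2:**
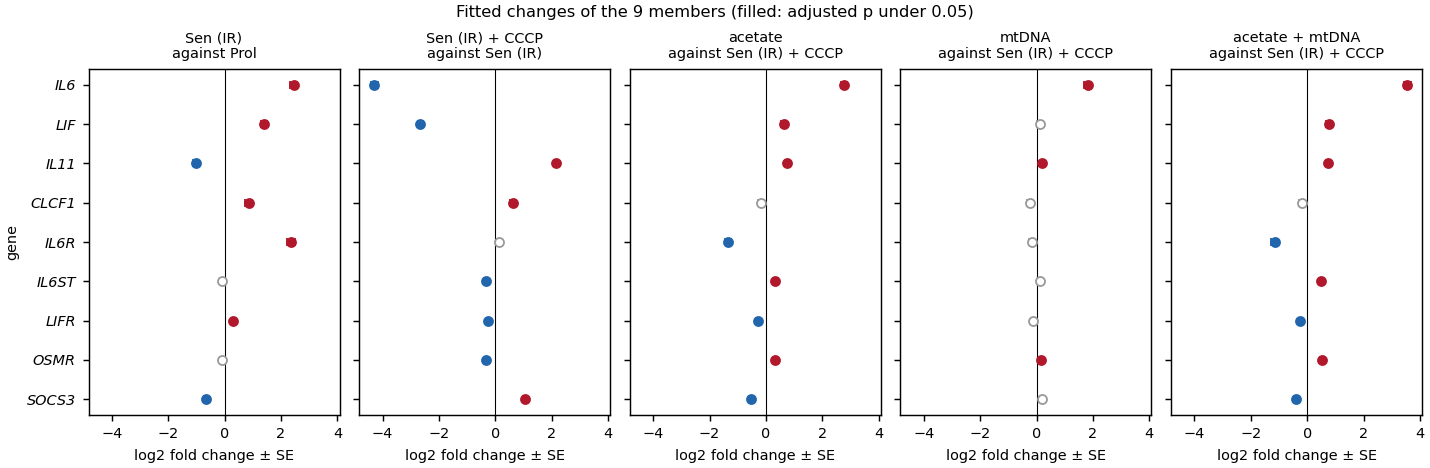
Log2 fold changes of the 9 members with their standard errors in 5 comparisons, from 1 fit of 18 libraries. Red symbols are genes called higher, blue ones called lower and open ones not called, and IL6 lies farthest from 0 in each panel, from -4.30 after CCCP to 3.55 with both treatments.

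When mtDNA was added to acetate, 3 members were higher (IL6, IL6ST and OSMR) and 0 lower, with 6.57% of all genes higher and 6% lower. At an unadjusted p under 0.05 the number of lower members was also 0, as by DESeq2. IL6ST (0.17 ± 0.04, adjusted p = 0.0126) and OSMR (0.18 ± 0.05, adjusted p = 0.02) lost their calls with library totals and without replicate 3 of the combination, and IL6ST also with TPM. Of all called genes 52.2% were higher, but 64.7% with DESeq2's size factors, 29.1% with library totals and 35.7% with TPM. When acetate was added to mtDNA, 5 members were higher (IL6, LIF, IL11, IL6ST and OSMR) and 3 lower (IL6R, LIFR and SOCS3), with 27.4% higher and 29.9% lower over all genes. There 47.8% of called genes were higher, or 36.2% with library totals. The interaction asks whether mtDNA changed a gene differently in acetate-treated cells, as the difference between both log2 changes. It was called lower for 1 member, IL6, and higher for 0, with 2 members higher at an unadjusted p under 0.05 (IL6R and LIFR) and 0 by DESeq2. Over all genes it was called lower for 0.583% and higher for 0.0765%, and 11.6% of these calls were higher, or 28.4% with TPM.

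Against intact senescent cells, depleted cells given both treatments had 5 members higher (IL11, CLCF1, IL6ST, OSMR and SOCS3) and 4 lower (IL6, LIF, IL6R and LIFR), with 32.2% of all genes higher and 34.7% lower. Of all called genes 48.2% were higher, or 69.1% with TPM. A direct comparison of acetate with mtDNA, added after the data were seen, had IL6, LIF, IL11, IL6ST and OSMR higher with acetate and IL6R, LIFR and SOCS3 lower. Those are 5 and 3 members, beside 30.3% and 31% of all genes.

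**Figure D3:**
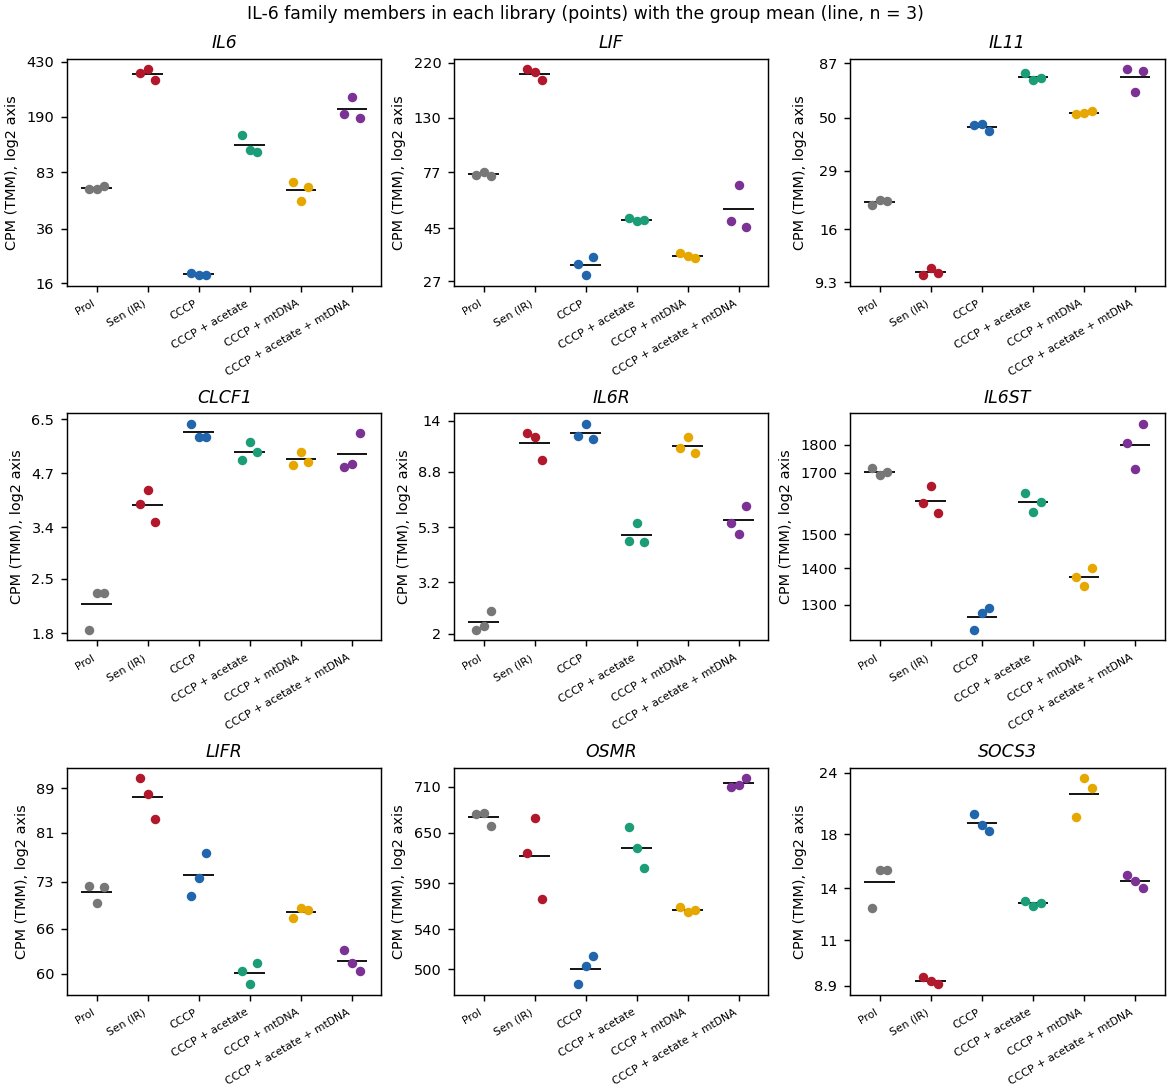
CPM of each member in every library (points, log2 axis) and the mean of the 3 libraries of each group (line). On the axis, CCCP stands for Sen (IR) + CCCP. IL6 runs from 17.9 to 384 CPM and its Sen (IR) libraries lie above all others, as those of LIF do.

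IL6 encodes the founding cytokine of the family. Its level was 65.2, 64.6 and 67.6 CPM in the Prol libraries and 364, 384 and 327 CPM in Sen (IR). In Sen (IR) + CCCP it was 18.6, 18 and 17.9 CPM, below every other library. These 3 groups did not overlap. Depleted cells with acetate had 145, 116 and 112 CPM, those with mtDNA 71.6, 54.0 and 66.3 CPM, and those with both 198, 256 and 185 CPM. Each treated group lay above the untreated depleted cells and below Sen (IR), and in CPM only the mtDNA group overlapped Prol. In TPM the mtDNA libraries, at 133 to 176, all lay above the 118 to 121 of Prol. The order of the means in CPM was thus Sen (IR), both treatments, acetate, Prol with mtDNA beside it, and untreated depleted cells.

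The log2 change of IL6 in Sen (IR) against Prol was 2.44 ± 0.11 (adjusted p = 7.28e-14), a 5.44-fold rise. After CCCP it fell by 4.30 ± 0.13 (adjusted p = 3.37e-17), which made the level 19.7-fold lower, and it ended 1.85 ± 0.12 below Prol (adjusted p = 6.81e-12). Acetate raised it by 2.77 ± 0.12 (adjusted p = 2.52e-14), mtDNA by 1.81 ± 0.12 (adjusted p = 5.3e-10) and both by 3.55 ± 0.12 (adjusted p = 7.58e-16). Acetate was followed by a larger rise than mtDNA in the direct comparison, by 0.96 ± 0.11 (adjusted p = 1.4e-07). Acetate was given from day 3 and mtDNA on day 10. The kind of treatment and its length cannot be told apart here.

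The rises of IL6 with the treatments did not add up on the log2 scale. In acetate-treated cells mtDNA raised IL6 by 0.78 ± 0.11 (adjusted p = 3.95e-05), and in cells without acetate by 1.81. The difference, the interaction, was -1.04 ± 0.16 (adjusted p = 0.00249). It compares ratios, and its sign need not hold for differences in level. The mean levels were 18.2 CPM untreated, 124 with acetate, 64.0 with mtDNA and 213 with both. Whether the rises add up in CPM was not tested. In replicate 2 of the combination IL6 was the highest of that group, and without this library the interaction was -1.19 and the rise with both treatments 3.41. With both treatments IL6 remained 0.75 ± 0.11 below Sen (IR) (adjusted p = 1.76e-06), a 1.68-fold difference that was -0.47 on the TPM scale.

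LIF encodes leukaemia inhibitory factor. It was at 75.1, 76.9 and 74.2 CPM in Prol and rose to 207, 202 and 187 CPM in Sen (IR), a change of 1.40 ± 0.09 (adjusted p = 2.84e-11). The depleted cells had 32.0, 28.6 and 34.1 CPM, with no overlap with either group. The fall from Sen (IR) was -2.66 ± 0.10 (adjusted p = 1.12e-15), a 6.30-fold lower level.

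LIF had smaller log2 changes with the treatments than IL6. With acetate its libraries held 49.6, 48.1 and 48.5 CPM, all above the untreated depleted cells, and the change was 0.63 ± 0.10 (adjusted p = 8.64e-06). With mtDNA they held 35.3, 34.3 and 33.7 CPM, which overlapped the untreated range, and the change of 0.13 ± 0.10 did not pass the test (adjusted p = 0.426). With both treatments LIF was at 48.3, 67.9 and 45.7 CPM, with replicate 2 highest, and the change of 0.77 (adjusted p = 5.2e-07) was 0.59 without that library. In CPM none of the treated groups reached the Prol range, but in TPM replicate 2 of the combination, at 82.0, lay above the 69.4 to 74.7 of Prol. With both treatments LIF was 1.88 ± 0.09 below Sen (IR) on the log2 scale (adjusted p = 1.07e-13).

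IL11, whose product is a profibrotic cytokine of stromal cells, ran the other way. It was at 20.5, 21.5 and 21.3 CPM in Prol and at 9.98, 10.8 and 10.2 CPM in Sen (IR), a 2.05-fold lower level (log2 change -1.03 ± 0.08, adjusted p = 2.82e-10). Depleted cells had 46.5, 46.8 and 43.6 CPM, above both of these groups, which made a rise of 2.15 ± 0.08 over Sen (IR) (adjusted p = 4.99e-16) and of 1.11 ± 0.07 over Prol (adjusted p = 3.96e-12).

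Acetate raised IL11 further, to 79.0, 73.6 and 74.8 CPM, a change of 0.73 ± 0.06 (adjusted p = 2.75e-09). The mtDNA libraries held 51.7, 52.7 and 53.6 CPM, all above the untreated depleted cells, with a change of 0.21 ± 0.07 (adjusted p = 0.0327) that lost its call in 4 of the runs with 1 library left out. The combination had 81.9, 64.9 and 80.4 CPM, with replicate 2 lowest and overlapping the acetate range. Its change against untreated depleted cells was 0.73 ± 0.07 (adjusted p = 2.5e-09), or 0.84 without that library. With both treatments IL11 was 7.36-fold higher than in Sen (IR) (2.88 ± 0.07, adjusted p = 2.82e-18), so the treatments that returned IL6 towards its senescent level took IL11 further from its own.

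CLCF1, the gene of cardiotrophin-like cytokine factor 1, had the lowest level of the 4 cytokine genes per length, with group means from 4.09 to 16.3 TPM. It was at 1.84, 2.30 and 2.29 CPM in Prol, 3.92, 4.26 and 3.51 CPM in Sen (IR) and 6.33, 5.86 and 5.84 CPM after CCCP, with no overlap among these groups. The 2 steps were 0.85 ± 0.13 (adjusted p = 8.68e-06) and 0.63 ± 0.11 (adjusted p = 4.38e-05). The treated depleted cells lay between 4.88 and 5.99 CPM, overlapping one another, and no treatment passed the test. It was thus the 1 cytokine gene among the members that rose with irradiation and rose again after CCCP.

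Per length, the make-up of these 4 cytokines changed between groups. IL6 made up 53.2% ± 0.92 (SD, n = 3) of their summed TPM in Prol and 75.6% ± 0.77 in Sen (IR), but 23.8% ± 0.12 in depleted cells. There IL11 was the most abundant, at 46.3% ± 1.73 against 13.2% ± 0.23 in Prol and 1.69% ± 0.11 in Sen (IR). IL6 led again with acetate (57.9% ± 2.84), with mtDNA (49.8% ± 3.74) and with both (69.5% ± 3.81), while IL11 was at 27.5%, 32.0% and 19.6%. The shares of IL6 and IL11 in the depleted libraries overlapped those of no other group. CLCF1 rose to 8.25% ± 0.22 in depleted cells and was at most 4.74% in any other library.

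**Figure D4:**
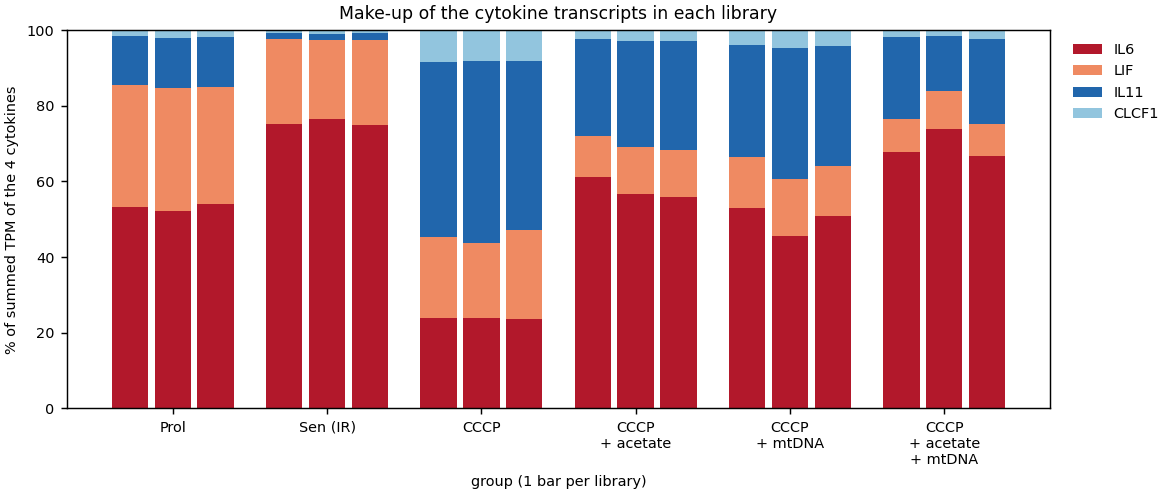
Share of each cytokine gene in the summed TPM of IL6, LIF, IL11 and CLCF1, 1 bar per library. IL6 is the largest block in all libraries but the 3 of Sen (IR) + CCCP, where IL11 holds 44.7% to 48.1%.

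The summed TPM of the 4 cytokines was 225 ± 4.78 (SD, n = 3) in Prol, 912 ± 53.9 in Sen (IR) and 198 ± 4.51 in depleted cells. It was 518 ± 44.8 with acetate, 315 ± 21.4 with mtDNA and 720 ± 73.8 with both. IL6 per IL11, a ratio of TPM, ranged from 0.497 to 0.531 in depleted cells and from 41.4 to 47.1 in Sen (IR). With 3 libraries a group, an exact two-sided permutation test of such shares and ratios cannot go below p = 0.1, so they are given by their ranges.

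The receptor genes stood at very different levels per length. IL6ST, which encodes gp130, stood at 691 ± 10.7 TPM (SD, n = 3) in Prol and OSMR at 352 ± 10.7 TPM, against 22.7 ± 0.11 TPM for LIFR and 1.3 ± 0.11 TPM for IL6R. In every library the order was IL6ST, OSMR, LIFR and IL6R.

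**Figure D5:**
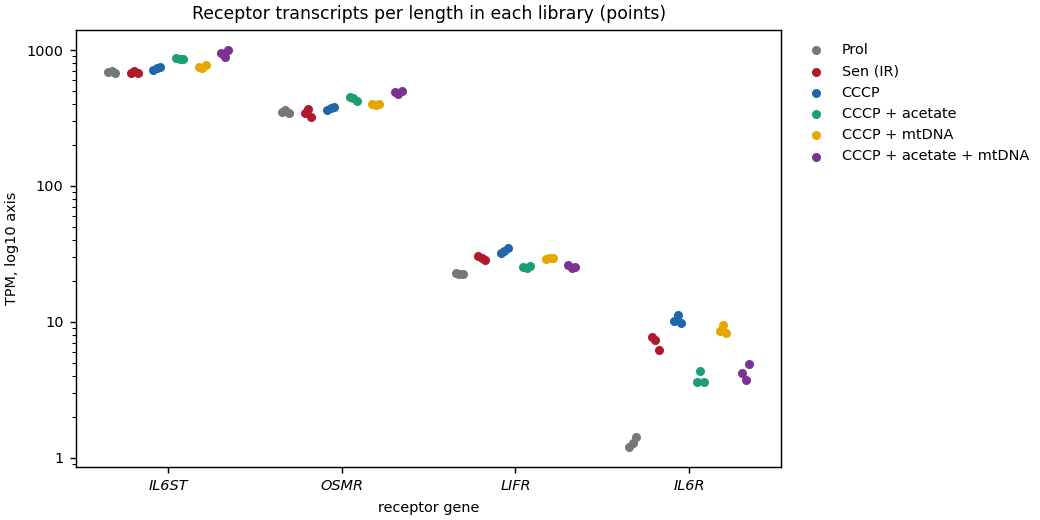
TPM of the 4 receptor genes in each library (points, log10 axis), by group. CCCP stands for Sen (IR) + CCCP. IL6R is lowest in Prol, at 1.3 TPM on average, while the lowest library of OSMR has 323 TPM and that of IL6ST 680.0 TPM.

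IL6R was the receptor that moved most. It was at 2.07, 2.15 and 2.47 CPM in Prol and at 12.6, 12.1 and 9.82 CPM in Sen (IR), a 5.11-fold rise (2.35 ± 0.13, adjusted p = 1.55e-12). Depleted cells kept this level, with 12.2, 13.6 and 11.9 CPM that overlapped Sen (IR), and their change of 0.13 ± 0.10 did not pass the test (adjusted p = 0.282). On the TPM scale it was 0.56 and called higher, as with library totals (0.39). Depleted cells thus had IL6R at about its level in Sen (IR) in CPM, while IL6 was below its level in Prol.

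Acetate lowered IL6R in depleted cells to 4.67, 5.53 and 4.62 CPM, a 2.54-fold lower level (-1.35 ± 0.11, adjusted p = 8.41e-10). The mtDNA libraries held 10.9, 12.0 and 10.5 CPM, overlapping the untreated ones, and the change of -0.18 ± 0.11 did not pass the test (adjusted p = 0.271). With both treatments IL6R was at 5.50, 5.0 and 6.41 CPM, which overlapped the acetate range and not that of mtDNA (-1.16 ± 0.11 against untreated depleted cells, adjusted p = 1.04e-08). No treated library fell to the Prol range.

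IL6ST lay within a narrow band. Its libraries held 1717, 1692 and 1702 CPM in Prol, 1599, 1656 and 1565 CPM in Sen (IR) and 1235, 1278 and 1292 CPM after CCCP. The last were the lowest of the series in CPM, with a log2 change of -0.34 ± 0.04 against Sen (IR) (adjusted p = 4.2e-07) that does not hold on the TPM scale. Acetate brought it to 1630, 1570 and 1602 CPM (0.34 ± 0.04, adjusted p = 8.21e-07), a rise that kept its call on all 4 scales. With mtDNA it was at 1376, 1351 and 1400 CPM, above every untreated depleted library, but the change of 0.12 ± 0.04 did not pass the test (adjusted p = 0.0655). IL6ST was called higher by DESeq2's Wald test and in a fit of only these groups (0.10, adjusted p = 0.015). It was also called without some single libraries, such as replicate 2 of the combination (0.12, adjusted p = 0.0348). With both it was at 1807, 1713 and 1878 CPM (0.50 ± 0.04, adjusted p = 1.49e-09).

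OSMR, the partner of gp130 for oncostatin M, followed IL6ST. It was at 675, 675 and 659 CPM in Prol, 625, 668 and 573 CPM in Sen (IR) and 486, 503 and 514 CPM after CCCP. The treated groups had 658, 631 and 607 CPM with acetate, 564, 558 and 560 CPM with mtDNA and 710, 713 and 722 CPM with both, each above the untreated depleted cells. The changes were 0.34 ± 0.05 with acetate (adjusted p = 4.85e-06), 0.16 ± 0.05 with mtDNA (adjusted p = 0.0247) and 0.51 ± 0.05 with both (adjusted p = 8.77e-09). IL6ST per OSMR, as a ratio of TPM, had group means between 1.89 and 2.00 and lay between 1.86 and 2.11 in every library. Over the 18 libraries each was the gene most correlated with the other in log2 CPM (Pearson r = 0.97), a description over libraries that share their groups.

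LIFR fell with acetate, unlike IL6ST and OSMR. It was at 72.4, 69.8 and 72.2 CPM in Prol and 91.0, 87.9 and 83.5 CPM in Sen (IR), the highest of the series in CPM (0.29 ± 0.05, adjusted p = 1.1e-05). In TPM the highest mean was that of depleted cells, at 33.4 against 29.4 in Sen (IR). Depleted cells had 70.7, 73.6 and 77.6 CPM, overlapping Prol. Those with acetate had 60.3, 58.7 and 61.4 CPM, those with mtDNA 67.5, 69.1 and 68.7 CPM and those with both 63.1, 61.4 and 60.3 CPM. All 9 treated libraries lay below the untreated depleted ones, with changes of -0.30 ± 0.05 for acetate (adjusted p = 7.89e-06) and -0.26 ± 0.05 for both (adjusted p = 3.85e-05), while -0.11 ± 0.05 for mtDNA did not pass the test (adjusted p = 0.0991).

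The balance of the receptor chains moved accordingly. IL6ST per IL6R, a ratio of TPM, was 534 ± 49.7 (SD, n = 3) in Prol, 98.1 ± 11.4 in Sen (IR) and 70.3 ± 5.27 in depleted cells. It was 227 ± 25.8 with acetate, 86.1 ± 7.58 with mtDNA and 223 ± 17.7 with both. The acetate and combination libraries, from 197 to 243, lay apart from all others. OSMR per LIFR went from 15.5 in Prol to 11.8 in Sen (IR), 11.2 in depleted cells and 17.4, 13.6 and 19.2 with acetate, mtDNA and both.

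SOCS3, the feedback inhibitor of gp130, was lowest in Sen (IR), where IL6 was highest. It was at 12.8, 15.2 and 15.3 CPM in Prol and 9.25, 9.09 and 8.96 CPM in Sen (IR), the lowest libraries of the series (-0.67 ± 0.08, adjusted p = 3.66e-07). Depleted cells had 19.8, 18.8 and 18.3 CPM, 2.08-fold above Sen (IR) (1.06 ± 0.08, adjusted p = 9.64e-11) and above all Prol libraries (0.39 ± 0.08, adjusted p = 0.0001). Acetate took it to 13.2, 12.9 and 13.1 CPM (-0.54 ± 0.07, adjusted p = 2.2e-06), inside the Prol range in CPM. In TPM SOCS3 lay above the 17.5 to 21.4 of Prol with acetate (23.8 to 24.0) and with both treatments (25.3 to 26.9). With mtDNA it was at 19.6, 23.4 and 22.3 CPM, which overlapped the untreated range (0.20 ± 0.07, adjusted p = 0.0669), although IL6 was 3.52-fold higher there. Without mtDNA replicate 1 SOCS3 was called higher (0.28, adjusted p = 0.0171). With both it was at 14.9, 14.5 and 14.0 CPM (-0.39 ± 0.08, adjusted p = 0.000137). As a ratio of TPM, IL6 per SOCS3 was 6.06 in Prol, 52.0 in Sen (IR), 1.27 in depleted cells, and 12.6, 3.94 and 19.4 with acetate, mtDNA and both. Over the 18 libraries SOCS3 had Pearson r = -0.77 with IL6 and -0.89 with LIF in log2 CPM, again a description of libraries that fall into 6 groups.

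The other ligands of the family added little. IL27, which had 0 counts in every library, and IL31, with at most 1, were not detected, and OSM was listed above 0 only in Sen (IR), at 1 to 5 counts. Of 6 ligands 3 were tested (CNTF, CTF1 and EBI3). CNTF fell with irradiation (-1.24 ± 0.28, adjusted p = 0.000584) and EBI3, a subunit shared by IL-27 and IL-35, fell after CCCP (-3.27 ± 0.52 against Sen (IR), adjusted p = 9.33e-06, and -2.39 against Prol). These falls rest on few reads. CNTF had 25 to 33 counts in Prol and 9 to 17 in Sen (IR), and EBI3 had 7, 8 and 0 after CCCP. With acetate or mtDNA alone 0 of the ligands were called. With both treatments CTF1 was lower (-0.32), a call lost with DESeq2's size factors. EBI3 was sparse, with 0, 0 and 1 counts in the mtDNA libraries, 5, 7 and 13 with acetate and 6, 10 and 18 with both, so its called differences between these groups rest on few reads.

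Of 5 further receptor genes, 4 were tested and CNTFR was at 3 counts or fewer in every library. IL31RA, which pairs with OSMR to form the IL-31 receptor, was called with irradiation, after CCCP and with each treatment. It fell in Sen (IR) against Prol (-0.79 ± 0.14), rose after CCCP (0.55 ± 0.14), and rose with acetate (1.74 ± 0.12, adjusted p = 3.71e-11) and with both treatments (2.15 ± 0.12, adjusted p = 1.01e-12). Its rise with mtDNA (0.44 ± 0.13, adjusted p = 0.0228) was lost with TPM and library totals, and without CCCP replicate 1 (adjusted p = 0.0678) or mtDNA replicate 1 (adjusted p = 0.0901). IL11RA, the receptor of IL-11, fell with mtDNA (-0.50 ± 0.15, adjusted p = 0.0239) and rose with acetate (0.75). The fall was lost without any 1 of the CCCP libraries or mtDNA replicate 1 or 2 (adjusted p of 0.0514 to 0.123). In Sen (IR) against Prol 0 of the 4 were higher and 3 lower, after CCCP 1 and 2 (2 and 0 with TPM), with acetate 2 and 0, with mtDNA 1 and 1 and with both 1 and 1. IL27RA had the largest fall after CCCP (-0.79), a call lost with TPM, with library totals and without Sen (IR) replicate 1 (-0.66, adjusted p = 0.0506).

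All 10 signal transducers were tested. With irradiation 3 were higher and 7 lower, and after CCCP 2 and 4, but 7 and 1 on the TPM scale. Acetate gave 2 higher and 1 lower, mtDNA 4 and 0, and both treatments 5 and 0, which were 1 and 3, 2 and 1, and 3 and 1 with TPM. STAT3, the main transcription factor of the family, lay between -0.32 and 0.13 in these 5 comparisons, and its fall after CCCP (-0.32) turned to 0.10 with TPM. JAK2 had the largest rise after CCCP (0.62), STAT5B the largest fall with irradiation (-0.72) and the largest rise with acetate (0.32), and STAT5A the only fall with acetate (-0.49), which without acetate replicate 2 was -0.36 (adjusted p = 0.0647).

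Of 8 further negative regulators 7 were tested, and PTPN6 had too few counts. SOCS1 fell after CCCP (-3.98 ± 0.37 against Sen (IR), adjusted p = 3.35e-09), opposite to SOCS3. The depleted libraries, treated or not, had 3 to 12 counts of SOCS1, so the size of its falls rests on few reads. SOCS2 fell with irradiation (-1.77 ± 0.06, adjusted p = 4.3e-16) and rose after CCCP (1.51 ± 0.06, adjusted p = 3.83e-15). PTPN2, a phosphatase of Janus kinases and STATs, fell with acetate (-1.12 ± 0.07, adjusted p = 6.11e-12) and with both treatments (-0.98 ± 0.07, adjusted p = 6.49e-11). In order, irradiation had 1 higher and 4 lower, CCCP 2 and 3 (5 and 1 with TPM), acetate 2 and 2, mtDNA 1 and 0 and both treatments 2 and 2. The largest rises were those of PTPN1 with irradiation (0.33) and SOCS2 with acetate (0.32), mtDNA (0.23, not called with TPM) and both (0.38).

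Of 16 genes listed as STAT3 targets 14 were tested, and SERPINA3 and LRG1 had at most 2 and 5 counts. They did not move as one. With irradiation 4 were higher and 7 lower, with CEBPB (0.68 ± 0.10) and FOS (-1.44 ± 0.18) at the ends. After CCCP 7 were higher and 6 lower, from FOS (3.30 ± 0.15) to CEBPD (-1.12 ± 0.16), and with TPM 8 and 2. Acetate gave 9 higher and 3 lower, with BCL6 (1.08 ± 0.06) and CEBPD (-1.17 ± 0.18), mtDNA 6 and 0, with CEBPB (0.72 ± 0.09), and both 10 and 3, with JUNB (1.14 ± 0.09) and FOS (-1.13 ± 0.12). Over the 14 tested, the median log2 change was -0.11 with irradiation, 0.16 after CCCP, 0.36 with acetate, 0.18 with mtDNA and 0.40 with both, beside -0.01, 0.03, 0.01, 0.00 and -0.04 over all genes. CEBPB was the 1 target with a called interaction (-0.59, adjusted p = 0.0237), which was lost with TPM and without CCCP replicate 2 or 3, acetate replicate 1, mtDNA replicate 2 or combination replicate 3 (adjusted p of 0.0532 to 0.072). Several of these genes have other strong regulators.

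The list of receptor shedding held 5 genes, all tested. ADAM17, the protease that releases soluble IL-6Rα, rose with irradiation (0.48 ± 0.06, adjusted p = 2.93e-07) and fell after CCCP (-0.64 against Sen (IR)), and RHBDF2, which brings ADAM17 to the cell surface, fell by 2.76 ± 0.17 (adjusted p = 4.51e-12). All 5 were lower after CCCP with TMM and 3 of them with TPM, with 0 higher. With irradiation 3 were higher and 2 lower, with TIMP3 the largest fall (-0.51). Acetate gave 3 higher and 0 lower, mtDNA 2 and 1, and both 4 and 1, with RHBDF2 the largest rise in each (0.83, 0.77 and 1.24) and RHBDF1 the largest fall with mtDNA (-0.23) and with both (-0.21). Without mtDNA replicate 1 the rise of RHBDF2 with mtDNA was 0.56 (adjusted p = 0.0716). The falls of RHBDF1 were lost without any 1 of several libraries, among them CCCP replicate 1 (-0.18 with mtDNA and -0.15 with both).

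Of 7 regulators of IL6 mRNA decay and stability, ZC3H12A, whose product degrades IL6 mRNA, moved with IL6. It rose with irradiation (2.03 ± 0.15, adjusted p = 1.02e-10), fell after CCCP (-3.31 ± 0.16, adjusted p = 8.23e-14) and rose with acetate (0.98 ± 0.18, adjusted p = 6.34e-05) and with both (1.25 ± 0.18, adjusted p = 3.12e-06). With mtDNA its change of -0.24 did not pass the test, although IL6 rose there. ARID5A, which protects IL6 mRNA, was the largest rise with mtDNA (0.85 ± 0.15, adjusted p = 0.000394). ZFP36L2 was the largest fall with irradiation (-0.69), the largest rise after CCCP (0.74) and the largest fall with acetate (-0.81) and both (-0.48). The counts were 2 higher and 3 lower with irradiation, 4 and 3 after CCCP (4 and 2 with TPM), 5 and 2 with acetate (3 and 2), 2 and 0 with mtDNA and 4 and 1 with both.

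Adding mtDNA to acetate raised 6 signal transducers, 3 STAT3 targets and 1 gene each of the other receptors, the shedding list and the decay list, and lowered 1 other receptor and 1 shedding gene. JUNB rose by 0.39, IL31RA by 0.41, TIMP3 by 0.39 and ZFP36L2 by 0.33, while IL11RA changed by -0.51 and RHBDF1 by -0.38. The rises of IL31RA and TIMP3 were lost with TPM. Without combination replicate 2 TIMP3 changed by 0.11 (adjusted p = 0.359), and JAK1, JAK2, STAT3, STAT5A and HIF1A lost their calls too. That of TIMP3 was also lost without any 1 of 8 other libraries, and that of IL11RA without acetate replicate 3 (adjusted p = 0.0891) or combination replicate 1 (adjusted p = 0.0722). The other ligands and the negative regulators had 0 called in either direction. Of the interactions, 1 of all list genes was called, that of CEBPB.

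Adding acetate to mtDNA raised 1 other ligand, 2 other receptors, 2 signal transducers, 2 negative regulators, 7 STAT3 targets, 4 shedding genes and 3 decay genes. It lowered 1, 0, 1, 2, 3, 0 and 1 of them in the same order. The ends of the lists were IL31RA (1.71), STAT5B (0.26) and STAT5A (-0.44), PIAS1 (0.21) and PTPN2 (-0.93), BCL6 (1.13) and CEBPD (-1.15), RHBDF2 (0.48, not called with TPM, and 0.27 without combination replicate 2), and ZC3H12A (1.49) and ZFP36L2 (-0.90). Among the ligands EBI3 was higher and CTF1 lower (-0.34, a call lost without any 1 of the combination libraries). The direct comparison of acetate with mtDNA had 1, 3, 2, 1, 6, 2 and 3 higher and 0, 0, 5, 2, 4, 0 and 2 lower. Among its ends were EBI3, IL31RA (1.3), STAT5B (0.25), PIAS1 (0.16) and PTPN2 (-1.07), BCL6 (1.10) and CEBPD (-1.30), RHBDF1 (0.40), and ZC3H12A (1.22) and ZFP36L2 (-1.23).

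Depleted cells against Prol had, in that order of lists, 0, 1, 2, 0, 7, 0 and 2 genes higher and 2, 2, 7, 5, 5, 5 and 3 lower, which on the TPM scale were 1, 1, 4, 5, 9, 2 and 4 higher and 1, 1, 1, 2, 3, 3 and 2 lower. IL27RA (-1.57), JAK2 (0.38), SOCS1 (-3.44), FOS (1.85) and PIM1 (-1.74), TIMP3 (-2.54), and ZFP36 (0.59) and ZC3H12A (-1.28) were among the ends. Cells with both treatments against Sen (IR) had 0, 1, 5, 1, 10, 0 and 5 higher and 2, 1, 1, 4, 3, 5 and 2 lower, with TPM 1, 1, 8, 2, 11, 1 and 5 higher and 0, 0, 0, 2, 2, 3 and 2 lower. There the ends were EBI3 (-1.86, not called with TPM), IL31RA (2.70) and IL27RA (-0.64, not called with TPM or without Sen (IR) replicate 1 or 2 or combination replicate 1 or 2), JAK2 (1.08) and STAT3 (-0.23, but 0.07 with TPM), SOCS2 (1.89) and SOCS1 (-3.14), FOS (2.17) and CEBPD (-2.14), RHBDF2 (-1.52), and RC3H2 (0.98) and ZC3H12A (-2.06).

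By correlation of log2 CPM over the 18 libraries, the genes most like each member were as follows, as a description in which groups of 3 libraries set most of the spread. IL6 was most like SLC39A14 (r = 0.97), VEGFC (0.96) and B3GNT2 (0.96). LIF was most like SLC17A5, FNDC3B and POMGNT1 (0.98 to 0.99), and IL11 was most like IARS and SALL1 (0.99 each). CLCF1 was most like TMEM131, AC087741.1 and DDX3X (0.98 each), and IL6R like PCDH9, IL33 and ZMPSTE24 (0.98 each). Next to OSMR, IL6ST was most like SCRN1 (0.97) and BEX4 (0.96), and next to IL6ST, OSMR was most like APP and IL1RAP (0.94 each). LIFR was most like CACNA2D1, CAT and PCSK5 (0.97 each), and SOCS3 was most like SET (0.97), SOX11 and RAP2B (0.96 each).

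Several members share exonic bases with genes on the opposite strand, and whether these libraries keep strand is not given in the sources used here, although the paper's methods count strand-specific libraries by strand. On GRCh38, IL6 lies at chr7:22725884-22732002 and shares 9.91% of its exonic bases with IL6-AS1, a non-coding gene with 6 to 46 counts per library. IL11 lies at chr19:55364382-55370463 with no overlapping gene. OSMR (chr5:38845858-38945596) shares 3.19% of its exonic bases with RICTOR, which had 905 to 4053 counts, and LIFR (chr5:38474668-38608354) shares 5.17% with LIFR-AS1, which had 8 to 42. Without strand, reads from such a pair cannot be told apart in the shared bases.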

How the data were processed

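RNA-seq of IMR90 fibroblasts gave 18 libraries, 3 per group. The counts per gene are whole read counts that the authors deposited for 57500 genes, of which 485 carried no symbol. The TPM values are those the authors deposited beside them, relative to gene length and library total. The submitters' processing notes name Trimmomatic 0.36, STAR 2.5.2b, featureCounts of Subread 1.5.2 and GRCh38. The paper's methods count strand-specific libraries by strand, without saying whether these are such libraries. Columns of no sample numbered 0.

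Counts were analysed in R 4.3.3 with edgeR 4.0.16 (TMM, filterByExpr by group, quasi-likelihood test, 1 fit of all 18 libraries with no block) with Benjamini-Hochberg adjustment over the 16994 genes tested of 37483 with at least 1 count, at a common biological coefficient of variation of 0.0644. Log2 CPM used a prior count of 2. TPM was used to compare genes with one another and, as log2(TPM + 0.1) in limma 3.58.1, as an alternative scale. The other alternatives were DESeq2 1.42.0 (adjusted p, or the study's rule of nominal p under 0.05 and an absolute log2 change over 0.5), its size factors in edgeR, dropping the low-count filter, a stricter one that asked for 10 counts in each library (13249 genes), leaving out mtDNA-encoded genes, fitting a comparison's own groups alone, a replicate block, and each library left out in turn. Library totals without TMM, and acetate against mtDNA, were added after the data were seen. The fits were tested on simulated data. Totals of 24624886 to 46224280 counts per library set the precision of low genes such as CLCF1 and IL6R.

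Groups came from the labels. The members, the 7 pathway lists (other ligands, other receptors, signal transducers, negative regulators, STAT3 targets, receptor shedding, IL6 mRNA decay and stability) and the markers were chosen with earlier results of these data known. Named were all members in every comparison, in each list its counts and the gene with the largest rise and fall past the threshold, and the 3 genes most correlated with each member over the 18 libraries. A few genes that this rule would name are not reported here. STAT3, ADAM17, IL11RA and a few other list genes were named after their values were seen. Promoters and motif shares are from RefSeq on GRCh38.p14, where 7 of 9 members had an entry.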

Additional observations from a re-analysis of the deposited data

Results flagged for a closer look

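The change of IL6 with mtDNA differed between depleted cells with and without acetate. The interaction term, which compares both log2 changes, was -1.04 ± 0.16 (SE; adjusted p = 0.00249 in edgeR's quasi-likelihood test). It lay between -1.19 and -0.92 over the 18 runs with 1 library left out, with -1.19 without replicate 2 of the combination, and it was called in each run. The term holds for log2 changes, and whether the rises of IL6 add up in CPM was not tested. Its cause was not tested.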

How the results depend on the processing

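On log2(TPM + 0.1) in limma, the falls after CCCP turned for IL6ST (0.0863), LIFR (0.19) and OSMR (0.12) against Sen (IR) and for IL6ST (0.0818) and OSMR (0.0882) against Prol, and with library totals that of LIFR against Sen (IR) turned (0.0174). The median of all genes moved with these scales, as given above.

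With TPM, the members called after CCCP against Sen (IR) were 6 higher and 2 lower, against Prol 2 lower, and with mtDNA 1 higher and 1 lower. With library totals they were 2 lower against Sen (IR), 2 lower against Prol, 1 higher and 1 lower with mtDNA, and 1 higher with mtDNA added to acetate. The study's rule in DESeq2 gave 2 lower after CCCP against Sen (IR), 2 lower against Prol, 3 higher with acetate, 1 higher with mtDNA, 1 lower with both, 1 higher with mtDNA added to acetate, 3 higher with acetate added to mtDNA, 2 higher with both against Sen (IR) and 2 higher with acetate against mtDNA. With mtDNA, no filter on low counts gave 1 higher, and at least 10 counts or only the groups compared gave 1 lower each.

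With 1 library left out, the members called lower in Sen (IR) against Prol numbered 2 to 4, those called higher with mtDNA 1 to 4, and those called higher with mtDNA added to acetate 1 to 3. The low ends came without CCCP replicate 1 (mtDNA) and without acetate replicate 2 or combination replicate 3 (mtDNA added to acetate). LIFR lost its call for acetate added to mtDNA without mtDNA replicate 2 or combination replicate 3.

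Replicate numbers did not pair the libraries: r of same-numbered libraries was -0.0821 to 0.0917 over 45 pairs, and 3 libraries correlated best with their own number. With the replicate block no call of a member changed, and IL11 with mtDNA added to acetate was -0.00032.

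Genes called over the whole table moved by over 1.5 times under at least 1 alternative in every comparison. Over the alternatives, those higher ranged from 3016 to 5628 (main value 4539) and those lower from 2693 to 5211 (5089) in Sen (IR) against Prol, from 3455 to 9617 (5776) and 2586 to 5453 (5312) after CCCP against Sen (IR), from 4234 to 10260 (5966) and 2716 to 5934 (5789) after CCCP against Prol, from 2745 to 5171 (4902) and 2777 to 6272 (4807) with acetate, from 3189 to 5385 (5146) and 3271 to 7415 (5341) with both, from 496 to 1818 (1116) and 700 to 1599 (1020) with mtDNA added to acetate, from 2931 to 4943 (4664) and 2829 to 6376 (5084) with acetate added to mtDNA, from 3603 to 8020 (5474) and 3594 to 5876 (5889) with both against Sen (IR), from 3251 to 5227 (5156) and 3101 to 5823 (5264) with acetate against mtDNA, from 764 to 2026 (1814) and 994 to 2127 (1257) with mtDNA, and from 12 to 301 (13) and 58 to 321 (99) for the interaction, which without replicate 2 of the combination had 72 higher and 331 lower. Of the members' results with 1 library left out, 1741 kept direction and side of the threshold, 11 gained a call and 13 lost one. Another 17 changed direction without being called, and 0 called changes reversed.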
